A study of Mus musculus with 4 samples.

Results

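Solute carrier (Slc) genes were examined in total RNA of adult mouse testis. They were chosen by name, as the features of the exon sense category whose symbol begins with Slc followed by a digit. The rule gave 201 genes in 44 families, of 12415 exon sense features and of 25745 features over the 10 annotation categories of the table. Strand-specific libraries depleted of rRNA were available from 2 Nef-sp-/- and 2 Nef-sp+/- testis samples of C57Bl/6J background at postnatal day 60. The Nef-sp allele carries an out-of-frame deletion of 23 bp made with a Cas9 nickase, so the Nef-sp+/- controls also carry 1 deleted allele. No wild-type testis was compared. The libraries of a genotype are numbered replicates, the labels do not say how many animals stand behind each, and p-values measure only the spread between these libraries.

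Solute carriers are membrane proteins that move sugars, amino acids, organic acids, nucleotides, metals and other ions across the plasma membrane and the membranes of organelles. Most work as facilitators, exchangers or cotransporters driven by gradients and do not split ATP themselves. In the testis, meiotic and postmeiotic germ cells lie behind the blood-testis barrier, where Sertoli cells hand them lactate and other nutrients. Sperm in turn depend on carriers for sugars, carboxylates, carnitine, protons and mitochondrial ATP.

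Each library held between 20659865 and 34442517 reads over all categories, with Nef-sp+/- replicate 2 the deepest, and between 160438 and 266049 exon sense reads of Slc genes. The targeted gene, 2610020H08Rik (the annotated symbol of Nef-sp), had 1843 and 1693 normalized counts in Nef-sp+/- against 407 and 497 in Nef-sp-/-. A normalized count is the read count scaled to the average effective library. The log2 fold change of 2610020H08Rik was -1.97 (SE 0.0921) and its adjusted p 4.12e-06 by the quasi-likelihood test of edgeR. The 5 spermatid markers Prm1, Prm2, Tnp1, Tnp2 and Acrv1 together reached 313286 normalized counts in Nef-sp+/- replicate 1 and between 380824 and 390362 in the other libraries. Of 5 epididymis markers, 1 was listed, with at most 5.77 normalized counts in any library. In the 9 marker lists for testis cell types, blood and epididymis, no gene passed an adjusted p of 0.05, where 0.00932% of all features did. Summed Leydig markers were 17729 and 18053 in Nef-sp+/- against 16893 and 14212 in Nef-sp-/-. Peritubular myoid markers were 1426 and 1388 against 1236 and 1361, and blood markers 471 and 545 against 435 and 454. In these lists the sums of both Nef-sp-/- libraries were lower, while the sums of the other lists overlapped. For single features, 16.4% were higher and 18.1% lower in Nef-sp-/- without overlap. The fitted markers within each of these lists went both ways. Their log2 fold changes ran from -0.35 to 0.18 (Leydig), -0.16 to 0.06 (peritubular myoid) and -0.75 to 0.23 (blood, with 3 of 5 markers listed). A difference in cell composition was not tested.

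In edgeR with all 4 libraries, no fitted Slc gene differed between Nef-sp-/- and Nef-sp+/- testis at an adjusted p below 0.05. Of the 201 genes, 164 passed the expression filter of edgeR and 0 of them had an adjusted p below 0.05, where 0.00932% of all 10728 fitted features did. The smallest adjusted p of an Slc gene was 0.954. An unadjusted p below 0.05 was obtained for 5 Slc genes, 4 of them higher and 1 lower in Nef-sp-/-, against 4.8% of all features. Without Nef-sp+/- replicate 1, 12 of 166 fitted Slc genes had an unadjusted p below 0.05, against 5.85% of all features in that fit. Without Nef-sp+/- replicate 2, 2 Slc genes (Slc30a4 and Slc39a13, described among the metal carriers) had an adjusted p below 0.05, against 2.32% of all features. By DESeq2, 0 Slc genes had an adjusted p below 0.05 (0.0186% of all features) and 0 an unadjusted p below 0.05 (1.38% of all features). The normalized counts of the genotypes did not overlap for 51 of the 164 fitted Slc genes. Of these, 25 were higher in Nef-sp-/- (16.4% of all features) and 26 lower (18.1% of all features). In bulk RNA, fewer cells of a type and less RNA per cell cannot be told apart.

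The most positive log2 fold change of a fitted Slc gene was 0.51, and negative ones reached a larger size. The median was 0.00, as for all features. Their median absolute value was 0.08, and 0.07 over all features. The 34 Slc genes with at least 1000 normalized counts had a median SE of 0.0648 on the log2 scale, and the largest absolute change among them was 0.19. For the 54 with under 100 normalized counts the median SE was 0.239. Changes above 0.5 in size were found for 3 Slc genes, 1.83% of those fitted, and for 2.41% of all features. They include Slc25a23 and Slc25a40, both with under 100 normalized counts. The 37 Slc genes that did not pass the filter had between 5 and 42 reads over the 4 libraries together, and they were not tested in this fit.

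**Figure D1:**
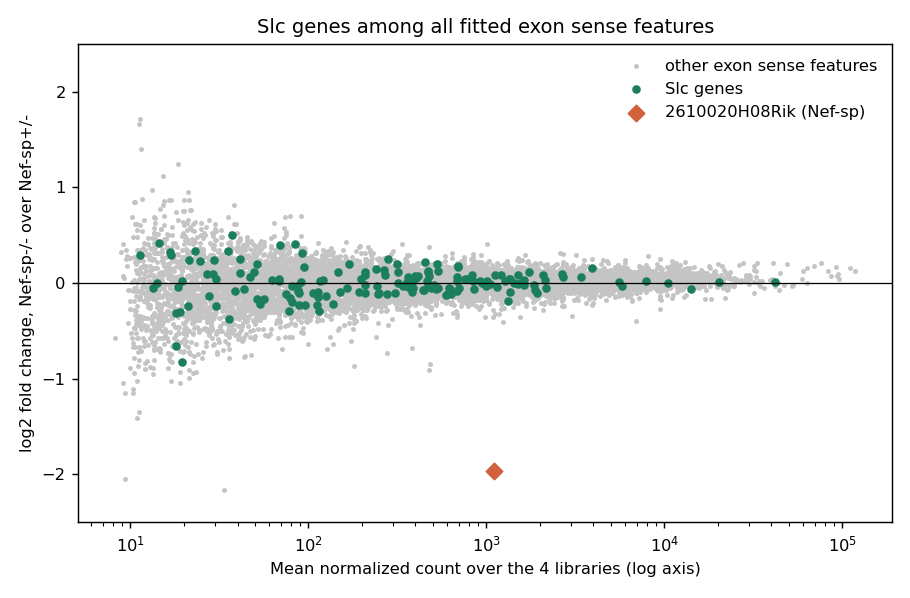
Each point is a fitted exon sense feature, with its mean normalized count over the 4 libraries on the log x axis and its log2 fold change (Nef-sp-/- relative to Nef-sp+/-) on the y axis. The 164 Slc genes (green) lie within the cloud of the other features (grey) and spread more at low counts, while 2610020H08Rik (orange diamond) lies at -1.97.

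The levels of Slc genes in testis were dominated by a few carriers. Slc2a3 alone took 22.1% of all Slc reads, the 3 most abundant genes 40.4% and the 10 most abundant 61.5%. To compare levels between genes, normalized counts were divided by the annotated exon length in kb. On this scale, Slc2a3, a glucose transporter of high affinity, was highest with 5752 ± 188 (SD over the 4 libraries) normalized counts per kb. Slc16a7, a transporter of pyruvate and lactate, followed with 5251 ± 171 per kb and Slc2a5, the fructose transporter, with 4170 ± 149. Slc25a39, a mitochondrial carrier for glutathione, reached 3785 ± 40.6 per kb. The carnitine transporter Slc22a16 had 3280 ± 77.7 per kb and Slc22a14, an organic ion carrier of sperm, 2393 ± 123. Slc9a10, the sodium/proton exchanger of sperm now called Slc9c1, had 1364 ± 26.01 per kb. Slc25a31, the ADP/ATP carrier of germ cells, had 1003 ± 22.7.

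These 8 genes were the Slc genes above 1000 normalized counts per kb. A further 58 lay between 100 and 1000, 68 between 10 and 100, and 66 below 10, with a median of 43.8 over the 200 genes that had an annotated length. Neighbours in this order had library ranges that did not overlap down to Slc39a6, the ninth gene. Slc30a4 in the tenth place overlapped with Slc3a2, and from Slc22a21, the twelfth, to Slc7a6, the twentieth, neighbours overlapped except for Slc34a2 and Slc25a46. With the length of the longest annotated transcript in place of all exons, Slc25a39 moved to the second place with 6191 per kb, and 11 of the 12 highest genes were shared. The order below Slc2a3 therefore depended on which length was used. Among the 12 highest genes, log2 fold changes lay between -0.08 and 0.15, and in 2 of the 12 the genotypes did not overlap. Of all features, 16.4% were higher and 18.1% lower in Nef-sp-/- without overlap.

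**Figure D2:**
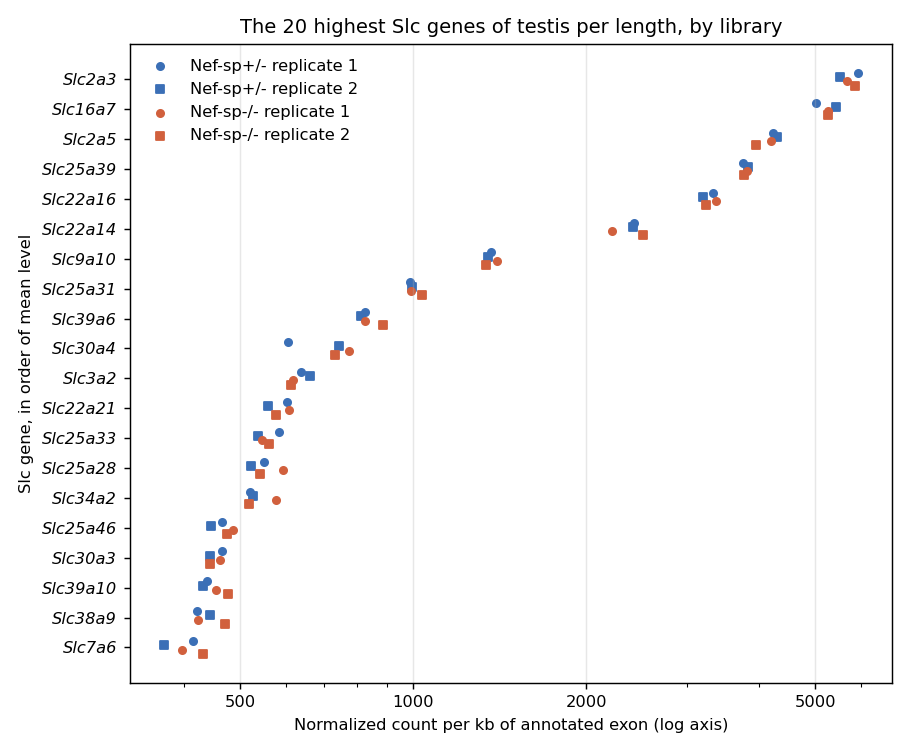
Levels of the 20 highest Slc genes in normalized counts per kb of annotated exon (log x axis), with 1 point per library, circles for replicate 1, squares for replicate 2, blue for Nef-sp+/- and orange for Nef-sp-/-. The genes fall from 5752 per kb for Slc2a3 to 403 for Slc7a6, and the libraries of each gene lie close together, with a wider gap for Slc30a4, where Nef-sp+/- replicate 1 lies at 607 and the other libraries between 730 and 773.

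Together, Slc genes took 1.04% and 0.999% of exon sense reads in Nef-sp+/- against 0.997% and 1.01% in Nef-sp-/-. The means were 1.02% ± 0.0269 and 1.01% ± 0.0120 (SD, n = 2 each), and the difference of -0.0126 percentage points was smaller than the SD of the Nef-sp+/- libraries and about as large as that of the Nef-sp-/- libraries (exact two-sided permutation test, p = 0.667). With 2 libraries against 2, this test cannot give less than 0.333. The 201 genes were sorted into 12 groups by what their families carry. In 4 of the 12 groups the shares did not overlap between genotypes. Without overlap, 16.4% of all single features were higher and 18.1% lower in Nef-sp-/-. The 4 groups were the amino acid and peptide carriers, lower in Nef-sp-/-, and the metal, the nucleotide sugar and the fatty acid carriers, higher in Nef-sp-/-. Each of the 4 had p = 0.333 by the exact permutation test, the smallest it can give, and an adjusted p of 1 over the 12 groups.

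**Figure D3:**
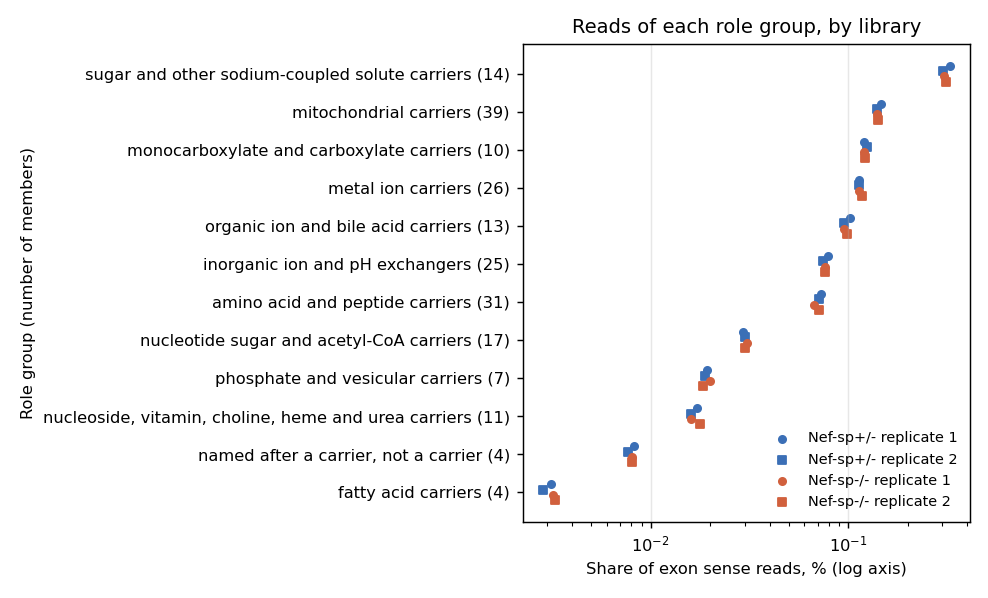
Share of exon sense reads in percent (log x axis) for each of the 12 role groups, with the number of members in parentheses and 1 point per library, coloured and shaped by genotype and replicate. Sugar carriers are highest, between 0.304% and 0.328%, fatty acid carriers lowest, between 0.00285% and 0.00328%, and the libraries of both genotypes lie close together in every group.

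Carriers of sugars, grouped with the sodium-coupled carriers of the Slc5 family, held 30.8% of all Slc reads in 14 genes. Slc2a3 (chr6:122677827-122751658 of mm9, which holds for all positions here) had 42994 and 40009 normalized counts in Nef-sp+/- against 41152 and 42540 in Nef-sp-/-, so that the genotypes overlapped. The log2 fold change was 0.01 (SE 0.0637). Slc2a5 (chr4:149493392-149518278) had 14404 and 14611 counts in Nef-sp+/- against 14276 and 13456 in Nef-sp-/-. Both Nef-sp-/- libraries were lower, by a log2 fold change of -0.07 (SE 0.0602) that did not pass the test (unadjusted p = 0.302 in edgeR). Slc2a8, an intracellular glucose transporter, had 772 and 663 counts against 728 and 645, with overlap. Slc2a1, the glucose transporter of many somatic cells, was low in testis, with 15.0 and 14.8 counts in Nef-sp+/- against 16.2 and 21.3 in Nef-sp-/-.

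Slc5a3, the sodium-coupled transporter of myo-inositol, was among the 8 Slc genes with the smallest unadjusted p and no overlap between genotypes. It had 520 and 465 counts in Nef-sp+/- against 530 and 592 in Nef-sp-/-, which gave a log2 fold change of 0.20 (SE 0.0882, unadjusted p = 0.0487, adjusted p = 0.954 in edgeR). The lowest Nef-sp-/- library thus lay only just above the highest Nef-sp+/- library. The log2 fold change of Slc5a3 was 0.11 without Nef-sp+/- replicate 2 and 0.12 without Nef-sp-/- replicate 2.

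Monocarboxylate and carboxylate carriers held 12.04% of Slc reads, nearly all of them from 1 gene. Slc16a7 (chr10:124663520-124766019) had 19554 and 21172 counts in Nef-sp+/- against 20526 and 20450 in Nef-sp-/-, with a log2 fold change of 0.01 (SE 0.0627). Within the Slc16 family it made up 94.2% of the normalized counts. Slc16a1, the widely expressed lactate transporter, had 1177 and 1169 counts against 1183 and 1297. The Nef-sp-/- libraries were both higher, by 0.08 on the log2 scale (SE 0.0679), and the change did not pass the test (unadjusted p = 0.266 in edgeR). Slc16a3, the lactate exporter of glycolytic cells, had between 2.30 and 13.0 counts and did not pass the expression filter. Slc13a5, a sodium-coupled citrate transporter, had 1008 and 1013 counts against 1031 and 945. Bsg, the chaperone that brings lactate transporters to the plasma membrane, is no carrier itself and had 10282, 10331, 10107 and 10411 normalized counts in the 4 libraries.

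Mitochondrial carriers of the Slc25 family were the largest group, with 39 genes, of which 33 were fitted, and 14.03% of Slc reads. They carry nucleotides, phosphate, amino acids, iron and other metabolites through the inner membrane. Of the 33, 14 had positive and 19 negative log2 fold changes, with a median of -0.05. Slc25a39 (chr11:102264299-102269260) had 10315 and 10543 counts in Nef-sp+/- against 10510 and 10359 in Nef-sp-/-, and a log2 fold change of 0.00 (SE 0.0574). Slc25a3, the phosphate carrier, had 2244 and 2144 counts against 2068 and 2162.

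The ADP/ATP carriers exchange ATP made in mitochondria for ADP of the cytosol, and the mouse has a gene for germ cells, a ubiquitous X-linked gene and a gene of heart and muscle. Their coding sequences are related, but none of the 3 genes shared a stretch of 50 bases with the protein-coding transcripts of another gene. Pseudogenes and the rest of the genome were not searched, so reads of 50 cycles may still match elsewhere. The most alike 60 bases of Slc25a4 and Slc25a5 are shown with the matching bases of Slc25a31, with capitals at positions where the 3 genes are not all equal. Slc25a4 and Slc25a5 differ there at 6 bases and Slc25a31 differs from Slc25a5 at 12.
Slc25a4: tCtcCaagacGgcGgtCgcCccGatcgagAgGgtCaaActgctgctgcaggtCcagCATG
Slc25a5: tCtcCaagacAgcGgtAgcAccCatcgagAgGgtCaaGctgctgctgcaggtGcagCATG
Slc25a31: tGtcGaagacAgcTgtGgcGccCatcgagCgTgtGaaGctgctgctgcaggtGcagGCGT

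The stretches start at base 62 of the coding sequence of Slc25a4 and Slc25a5 and at base 101 of that of Slc25a31. The stretch of Slc25a31 lies on the plus strand of chr3:40513014-40513073, and those of Slc25a4 and Slc25a5 do not lie within 1 exon. Slc25a31 (chr3:40512777-40529515), the germ cell gene, was the highest of the 3, with 1604 and 1619 counts in Nef-sp+/- against 1613 and 1685 in Nef-sp-/-. Per kb of exon it stood at 1003, above Slc25a5 at 386 and Slc25a4 at 263. Slc25a4, the carrier of heart and muscle, had 611 and 649 counts against 633 and 585, with overlap. X-linked Slc25a5 had 650 and 670 counts against 604 and 615. Both Nef-sp-/- libraries were lower, with a log2 fold change of -0.12 (SE 0.0703) that did not pass the test (unadjusted p = 0.124 in edgeR).

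Slc25a37, a mitochondrial iron importer, had 600 and 699 counts in Nef-sp+/- against 730 and 742 in Nef-sp-/-. The genotypes did not overlap, and the log2 fold change was 0.17 (SE 0.0833, unadjusted p = 0.0669, adjusted p = 0.954 in edgeR). This value was 0.07 without Nef-sp+/- replicate 1 and 0.30 without Nef-sp+/- replicate 2. Slc25a28, the other mitochondrial iron importer, had 834 and 790 counts against 897 and 820, and its genotypes overlapped. Slc25a23, a calcium-sensitive ATP-Mg/phosphate carrier, was read from few counts, 20.7 and 23.2 in Nef-sp+/- against 16.2 and 11.8 in Nef-sp-/-. The change was -0.66 on the log2 scale (SE 0.322, unadjusted p = 0.0652, adjusted p = 0.954).

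Metal ion carriers held 11.3% of Slc reads. The group is made up mainly of zinc carriers: Slc39 proteins bring zinc into the cytosol and Slc30 proteins take it out or into vesicles. The highest importer, Slc39a6, had 3364 and 3301 counts in Nef-sp+/- against 3357 and 3608 in Nef-sp-/-, with overlap. Its partner Slc39a10 had 2608 and 2565 counts against 2701 and 2836, without overlap, and a log2 fold change of 0.10 (SE 0.0593, unadjusted p = 0.125 in edgeR). Of the 11 fitted Slc39 genes, 5 had positive and 6 negative log2 fold changes, and of the 8 Slc30 genes 3 and 5.

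Slc30a6, a zinc carrier of the Golgi, had 72.5 and 71.8 counts in Nef-sp+/- against 102 and 89.9 in Nef-sp-/-. Both Nef-sp-/- libraries were higher, with a log2 fold change of 0.41 (SE 0.158, unadjusted p = 0.0252, adjusted p = 0.954 in edgeR). Slc30a4 (chr2:122506969-122528399), a zinc carrier of vesicles and the highest of its family, had 3325 and 4074 counts in Nef-sp+/- against 4239 and 4002 in Nef-sp-/-. The library that lay apart was Nef-sp+/- replicate 1, and the genotypes overlapped (log2 fold change 0.15, SE 0.0865). Slc39a13, a zinc carrier of the early secretory pathway, had 242 and 342 counts against 329 and 354, with the same library lowest.

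Without Nef-sp+/- replicate 2, which leaves replicate 1 as the only control, Slc30a4 and Slc39a13 had an adjusted p below 0.05, where 2.32% of all features did. Their log2 fold changes were then 0.31 (adjusted p = 0.00453) and 0.50 (adjusted p = 0.0208) in edgeR, with the lone control assumed to vary like the Nef-sp-/- libraries. Without Nef-sp+/- replicate 1, they were 0.02 for Slc30a4 and 2.61e-05 for Slc39a13. Nef-sp+/- replicate 1 is also the library with the lowest sum of spermatid markers, 313286 against at least 380824, and the part of this in the values of both genes was not tested.

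Organic ion and bile acid carriers held 9.66% of Slc reads in 13 genes, led by carriers of carnitine and related cations. Slc22a16 (chr10:40290142-40323938) had 8036 and 7716 counts in Nef-sp+/- against 8122 and 7820 in Nef-sp-/-, with overlap and a log2 fold change of 0.02 (SE 0.0592). Slc22a14 (chr9:119078573-119099525) had 5825 and 5798 counts against 5341 and 6044. Both libraries of Nef-sp+/- lay between those of Nef-sp-/-.

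The carnitine transporter Slc22a5 and its neighbour Slc22a21 on the minus strand of chromosome 11 are close copies, so that reads can be shared between them. Of the stretches of 50 bases in their annotated transcripts, 26.2% of those of Slc22a5 and 22.3% of those of Slc22a21 were found in another gene as well. Among the protein-coding transcripts compared, these were the only 2 Slc genes above 10%, and 169 of 200 Slc genes had none. The longest coding stretch that they share, 157 bases long, is shown first. It lies on the minus strand at chr11:53681030-53681186 in Slc22a5 and at chr11:53766508-53766664 in Slc22a21. The 60 bases that follow it in each gene come next, with capitals at the 7 bases that differ.
Shared stretch: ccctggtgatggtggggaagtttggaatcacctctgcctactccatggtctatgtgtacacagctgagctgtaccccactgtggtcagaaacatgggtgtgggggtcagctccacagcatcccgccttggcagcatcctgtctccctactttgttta
Slc22a5: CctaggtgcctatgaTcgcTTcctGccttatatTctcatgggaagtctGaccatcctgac
Slc22a21: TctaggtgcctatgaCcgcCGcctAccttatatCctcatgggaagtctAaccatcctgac

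A read of 50 cycles from within the shared stretch has no base that separates the genes, and how such reads were counted is not given in the sources used here. Slc22a21 had 2202 and 2040 counts in Nef-sp+/- against 2216 and 2105 in Nef-sp-/-. Slc22a5 had 1030 and 962 counts against 1038 and 982. Both genes overlapped between genotypes, with log2 fold changes of 0.03 (SE 0.0647) and 0.02 (SE 0.0692), and the division of reads between them is uncertain.

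Inorganic ion and pH exchangers held 7.55% of Slc reads. Slc9a10 (chr16:45535422-45607114) made up 72.3% of the normalized counts of the Slc9 family, with 5551 and 5480 counts in Nef-sp+/- against 5671 and 5428 in Nef-sp-/-. The genotypes overlapped (log2 fold change 0.01, SE 0.0582). Slc26a8, an anion transporter of sperm, had 1276 and 1259 counts against 1334 and 1245, also with overlap. The bicarbonate transporter Slc4a7 had 1871 and 1862 counts against 1813 and 1872.

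Amino acid and peptide carriers, 31 genes, held 6.96% of Slc reads. Slc6a6, the taurine transporter, had 2027 and 1980 counts in Nef-sp+/- against 1780 and 1948 in Nef-sp-/-, and Slc3a2, the heavy chain shared by several amino acid exchangers, 1885 and 1958 against 1830 and 1814. In both genes the Nef-sp-/- libraries were lower, by log2 fold changes of -0.10 (SE 0.0651) and -0.08 (SE 0.0598) that did not pass the test. Slc7a5, a light chain that pairs with Slc3a2, had 1364 and 1444 counts against 1072 and 1394, with overlap, and Slc7a6, another, 1542 and 1376 against 1479 and 1609. Slc36a3, of the family of proton-coupled amino acid transporters, had 636 and 764 counts against 669 and 667. Slc43a2, a facilitator for large neutral amino acids, had 242 and 271 counts in Nef-sp+/- against 331 and 283 in Nef-sp-/-. Its genotypes did not overlap, and the log2 fold change was 0.25 (SE 0.110, unadjusted p = 0.0444, adjusted p = 0.954 in edgeR), with 0.13 when Nef-sp-/- replicate 1 was left out.

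Nucleotide sugar and acetyl-CoA carriers, which supply the endoplasmic reticulum and Golgi, held 2.97% of Slc reads. Slc35b1, a carrier of the endoplasmic reticulum, had the smallest unadjusted p of all Slc genes. It had 435 and 407 counts in Nef-sp+/- against 492 and 483 in Nef-sp-/-, with a log2 fold change of 0.22 (SE 0.0799, unadjusted p = 0.0206, adjusted p = 0.954 in edgeR). Both Nef-sp-/- libraries were higher. The most abundant gene of the group, Slc35a5, had 1554 and 1780 counts against 1847 and 1784. Its genotypes did not overlap either, although Nef-sp+/- replicate 2 and Nef-sp-/- replicate 2 differed by few counts. Of the 14 fitted genes of the Slc35 family, 11 had positive log2 fold changes and 3 negative ones, with a median of 0.08 and a range from -0.24 to 0.33. Other families went the opposite way, such as Slc10 with 0 positive and 3 negative changes, and a shift of a family was not tested.

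Among the smaller groups, Slc29a1, a nucleoside transporter, had 1419 and 1263 counts in Nef-sp+/- against 1349 and 1399 in Nef-sp-/-. Slc34a2, a sodium-coupled phosphate transporter, had 2609 and 2641 counts against 2887 and 2595. Both overlapped between genotypes. Slc44a2, a choline transporter-like protein, had 647 and 649 counts against 667 and 800. It did not overlap between genotypes, with most of its difference in Nef-sp-/- replicate 2 (log2 fold change 0.18, SE 0.0879, unadjusted p = 0.0682, adjusted p = 0.954 in edgeR). The fold change was 0.05 without Nef-sp-/- replicate 2 and 0.30 without Nef-sp-/- replicate 1 on the log2 scale.

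The 4 fatty acid carriers of the Slc27 family, which take up fatty acids and join them to coenzyme A, all had positive log2 fold changes, from 0.08 to 0.41 with a median of 0.22. None of them had an unadjusted p below 0.05, and a shift of the family was not tested. Slc27a1, the most abundant, had 282 and 227 counts in Nef-sp+/- against 268 and 282 in Nef-sp-/-, with overlap. Slc27a3 had 71.4 and 91.5 counts against 105 and 102, without overlap (log2 fold change 0.31, SE 0.165, unadjusted p = 0.0859 in edgeR). Slc27a6 had 200 and 205 counts against 215 and 214, also without overlap, and Slc27a4 had at most 16.6 counts in any library. Slc4a1ap, Slc7a6os, Slc9a3r1 and Slc9a3r2 are named after a carrier without being one, and together they held 0.790% of the reads.

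**Figure D4:**
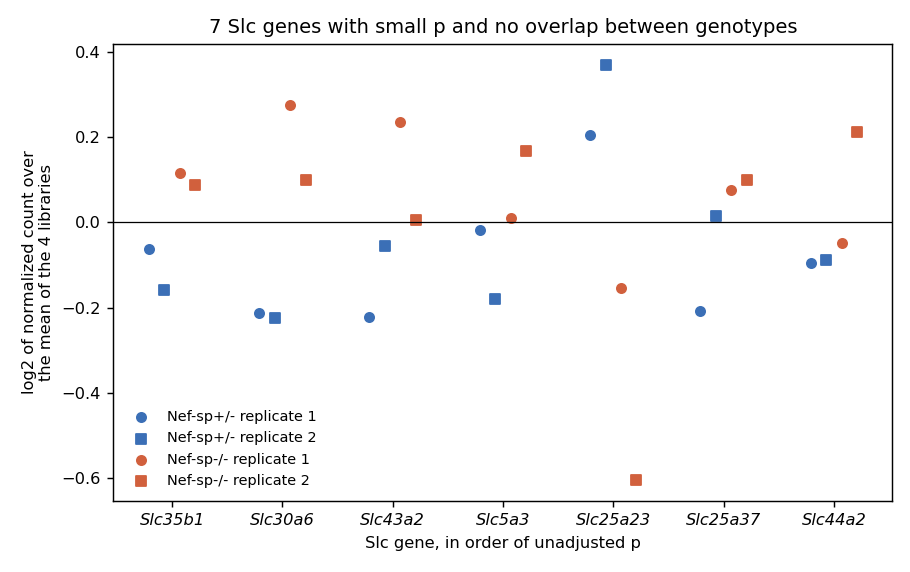
For 7 of the 8 Slc genes with the smallest unadjusted p among those whose genotypes do not overlap, the y axis gives log2 of the normalized count of each library over the mean of the 4 libraries, with Nef-sp+/- in blue and Nef-sp-/- in orange. Slc25a23 is lower in Nef-sp-/- and the other 6 genes are higher, with an adjusted p of 0.954 for each.

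Replicates of a genotype differed by a median of 0.11 on the log2 scale over fitted Slc genes, in Nef-sp+/- as in Nef-sp-/-. The median absolute log2 fold change between genotypes was 0.08. The first value compares single libraries and the second draws on 2 libraries per genotype, which vary less, so they are not on the same footing. The difference between replicates was largest for 3 genes of low counts. Slc37a2, a sugar phosphate carrier, had 16.2 and 36.7 counts in the Nef-sp-/- libraries. Slc25a40, a mitochondrial carrier close to Slc25a39, had 43.7 and 20.4 counts and Slc44a1, a choline transporter, 26.5 and 12.7 counts in the Nef-sp+/- libraries.

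Levels were listed for carriers known from germ cells and from Sertoli cells. Of a list of 13 germ cell symbols, 9 had an exon sense value, and these ranged from 290 normalized counts per kb for Slc36a3 to 5752 for Slc2a3. Slc16a8, Slc26a3 and Slc6a20a had no exon sense value, so the range leaves them out. Slc9c1 is the later name of Slc9a10, which is on the list as well. Of 6 carriers listed for Sertoli cells, Slc1a5, Slc2a1, Slc7a8, Slc16a1, Slc16a3 and Slc38a5, levels ranged from 1.27 to 273 per kb, with Slc16a1 the highest. The summed normalized counts of the germ cell list were 99880 and 98428 in Nef-sp+/- against 98704 and 99334 in Nef-sp-/-. The sums of the Sertoli list were 1533 and 1457 against 1463 and 1615. Both lists overlapped between genotypes, and 0 genes of either had an adjusted p below 0.05.

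Other transport genes, such as ABC transporters, ion pumps and aquaporins, were compared as a list of 74 symbols, of which 59 were fitted. As for Slc genes, 0 had an adjusted p below 0.05, where 0.00932% of all features did. An unadjusted p below 0.05 was found for 1 higher and 1 lower gene in Nef-sp-/-, against 4.8% of all features. The median log2 fold change of the list was 0.00.

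Reads outside the exons in sense direction were examined as further readouts of the same loci. Slc symbols in these categories need not have an exon sense value. In the intron sense category, 102 Slc genes were listed and 46 fitted, and 0 had an adjusted p below 0.05 (0.0294% of all features). An unadjusted p below 0.05 was found for 3 of them, and for 2.35% of all features. In the exon antisense category, 38 were listed and 14 fitted, with 0 below an adjusted p of 0.05 (0% of all features) and 0 below an unadjusted p of 0.05 (2.98% of all features). In the intron antisense category, 54 were listed and 24 fitted, with 0 below an adjusted p of 0.05 (0% of all features) and 1 below an unadjusted p of 0.05 (4.5% of all features). DESeq2 gave 0 Slc genes with an adjusted p below 0.05 in each of the 3 categories.

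The intron sense reads were highest for Slc25a3, with 1305 and 1271 normalized counts in Nef-sp+/- against 1318 and 1202 in Nef-sp-/-. Its exon sense reads had a mean of 2154. The annotation places the small nucleolar RNA gene SNORA53 at chr10:90581036-90581281 on the same strand within the gene, outside its exons. Slc2a5 had 547 and 649 intron sense counts against 604 and 530, and Slc38a9, a lysosomal amino acid carrier, 433 and 382 against 406 and 487. No other gene is annotated within either of them on that strand. The smallest unadjusted p values in edgeR were 0.0187 for Slc25a40 (26.9 and 30.9 counts against 14.3 and 18.7, log2 fold change -0.81, SE 0.319) and 0.0233 for Slc9a8, a sodium/proton exchanger of the Golgi (47.1 and 44.2 against 73.8 and 59.4, log2 fold change 0.55, SE 0.224). In exon sense reads, the log2 fold changes of these genes were 0.51 and 0.07.

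The 3 Slc loci with the most exon antisense reads overlap exons of another gene on the opposite strand. Exon antisense reads of Slc24a5, an exchanger of pigment cells with no exon sense value here, were 897 and 855 in Nef-sp+/- against 833 and 998 in Nef-sp-/-. Its exons overlap those of Myef2 by 921 bp. Slc16a3 had 300 and 354 exon antisense counts against 350 and 364, while its own exon sense reads had a mean of 6.74. Its exons overlap those of Csnk1d by 831 bp. Slc6a9, a glycine transporter, had 284 and 304 exon antisense counts against 311 and 307, with exon sense counts of at most 5.77. Its exons overlap those of Ccdc24 by 1429 bp, of Gm17114 by 511 bp and of B4galt2 by 46 bp. Only B4galt2 had an exon sense value under its name, with a mean of 324, and the source of the antisense reads was not tested.

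Intron antisense reads were highest at Slc1a1, a glutamate transporter with no exon sense value, with 2312 and 2213 counts against 2337 and 2301. On the opposite strand, the gene 4430402I18Rik overlaps the end of Slc1a1 and the pseudogene Gm5822 lies within it. At Slc23a1, a vitamin C transporter, they were 1848 and 1927 against 2032 and 2038, and the opposite gene is Paip2. Both Nef-sp-/- libraries of Slc23a1 were higher, by a log2 fold change of 0.11 (SE 0.0761) that did not pass the test. Slc39a8, an importer of zinc and manganese, had 848 and 842 intron antisense counts against 835 and 805 beside 1566 exon sense counts, and no gene is annotated opposite to it. The smallest unadjusted p in edgeR was 0.00912 for Slc6a11, a transporter of GABA, with 18.7 and 17.6 counts against 8.06 and 7.01 (log2 fold change -1.24, SE 0.438, adjusted p = 0.969). Slc7a15 followed with 65.3 and 63.5 counts against 85.2 and 73.6, and in the exon antisense category Slc34a1 (40.8 and 40.2 against 31.5 and 29.7) and Slc25a35 (107 and 89.4 against 87.4 and 136) had the smallest unadjusted p values, neither below 0.05.

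**Figure D5:**
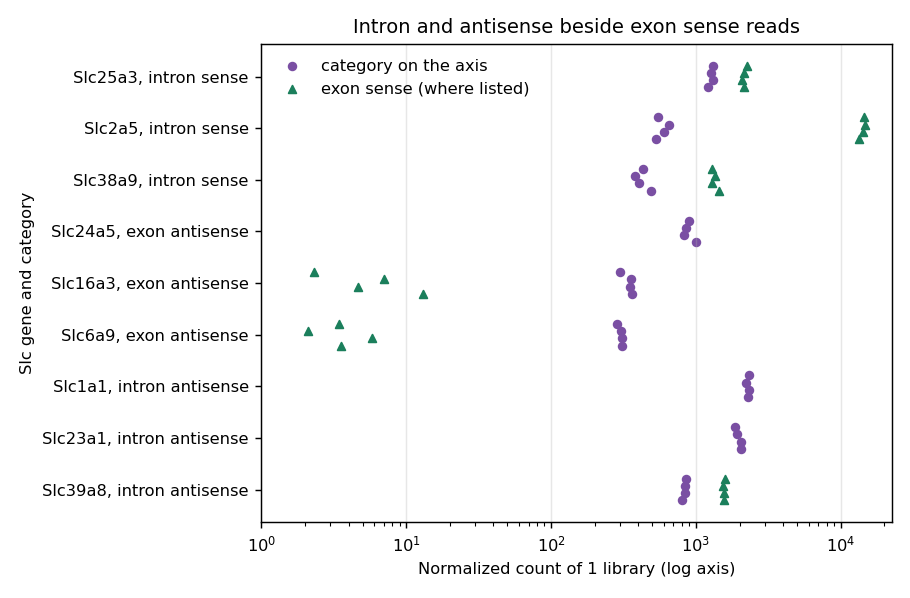
For the 3 Slc genes with the highest level in each of the intron sense, exon antisense and intron antisense categories, purple points give the normalized count of each library in that category and green triangles its exon sense count where the gene has one (log x axis, from top to bottom Nef-sp+/- replicates 1 and 2 and Nef-sp-/- replicates 1 and 2). Slc16a3 and Slc6a9 have more than 280 exon antisense counts in each library beside at most 13.0 exon sense counts, and Slc2a5 has far more exon sense than intron reads.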

How the data were processed

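Testicular total RNA was sequenced for 50 cycles in 4 strand-specific libraries, 2 per genotype, grouped by the sample labels. Using in-house tools, the authors trimmed adapters, aligned to mm9, discarded any read with a mismatch and deposited raw read counts by feature, annotation category and strand. Tool versions, and how multiply matching reads were counted, are not given in the sources used here. The deposited mean, fold change and p-value columns of their DESeq2 comparison were not used. Counts of each category were fitted with edgeR 4.0.16 (R 4.3.3), quasi-likelihood test after TMM and filterByExpr (minimum count 10), without covariates, with Benjamini-Hochberg adjustment over the category, and the fit was tested on simulated data. SE is the log2 fold change over the square root of F. Lengths and positions come from GENCODE vM1 on mm9, which matched 200 of 201 genes. Protein-coding transcripts were compared with each other in stretches of 50 bases, and not with the rest of the genome.

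Named are the 8 genes with the smallest p without overlap (1 is not reported here), the 12 highest per kb, the highest of each role group, cell type lists, the 3 highest and 2 of smallest p in other categories, the ADP/ATP and lactate carriers, and the 3 with the largest replicate difference; further genes of a group were chosen after their values were seen. The members and lists were chosen with earlier results of these data known. Replicates of a genotype differed by more than sampling noise (chi-square per degree of freedom over Slc genes 4.48 and 2.50). Alternatives were DESeq2 1.42.0 without and with its prior, its size factors, total library size, other filters, blocks and each library left out.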

Additional observations from a re-analysis of the deposited data

How the results depend on the processing

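With Nef-sp+/- replicate 2 left out, 2 Slc genes (Slc30a4 and Slc39a13) had an adjusted p below 0.05, and under every other alternative 0 had. Leaving out each library in turn gave 0 to 2 such genes, and 0 to 1 among the named ones. The number of Slc genes with an unadjusted p below 0.05, which was 5, became 0 with DESeq2 (1.38% of all features) and 0 with its prior (1.37%). When a library was left out it was between 5 and 12: 12 without Nef-sp+/- replicate 1 (5.85% of all features), 7 without Nef-sp+/- replicate 2 (9.44%) and 5 without each Nef-sp-/- library in turn (4.44% and 3.56%). Their median log2 fold change, 0.00, became -0.0197 with the total library size over all categories, -0.0115 without an expression filter, and -0.0195 to 0.0201 when a library was left out. The exon antisense change of Slc25a35, 0.20, lay between -0.16 (without Nef-sp-/- replicate 2) and 0.48 when a library was left out. The cause of these differences was not tested. Calls in the 3 other categories stayed at 0 members under every alternative.

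The labels do not say that same-numbered samples share a litter or day, and the deviations of same-numbered libraries from their group means had a correlation of -0.09 over exon sense features. With the replicate block, 3 Slc genes had an unadjusted p below 0.05 (3.43% of all features) and 0 an adjusted p below 0.05. A block with crossed numbers, chosen after seeing the data, gave 12 (8.88% of all features) and 0.

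Precision was set by 2 libraries per genotype and by depth: the median SE was 0.0648 on the log2 scale for Slc genes of at least 1000 normalized counts and 0.239 for those under 100, where small changes were not detectable. The order of levels rests on annotated lengths, not on those of the transcripts present in testis.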

Other observations

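The 9 X-linked Slc genes had a median of 17.4 normalized counts per kb and the 191 autosomal ones with a position 48.3. The highest X-linked gene was Slc25a5 with 386 per kb, followed by Slc38a5, a glutamine transporter, with 55.9 and Slc10a3 with 38.7. Slc7a3, an arginine transporter, had 1.51 normalized counts on average and did not pass the expression filter, nor did Slc25a43 with 4.31. Among the 7 fitted X-linked genes, 4 log2 fold changes were negative, that of Slc25a5 -0.12, and 3 positive, up to 0.25 for Slc25a14.

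Families differed in how evenly their reads were spread over members. Slc6a6 made up 95.01% of the normalized counts of 5 listed Slc6 genes and Slc36a3 86.3% of those of 3 Slc36 genes. In contrast, Slc39a6 made up 34.1% of 11 Slc39 genes and Slc35a5 39.1% of 16 Slc35 genes. These shares are not divided by length.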
